A study of Mus musculus with 4 samples.

Results

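The PPP1R14 inhibitors of protein phosphatase 1 (PP1) and the subunits of the phosphatase they act on were followed in mouse leukemic cells with and without Msi2, which encodes a Musashi RNA-binding protein. The set has 9 genes, taken by symbol from the 23284 gene rows: 4 inhibitors (Ppp1r14a, Ppp1r14b, Ppp1r14c and Ppp1r14d), 2 targeting subunits (Ppp1r12a and Ppp1r12c) and 3 catalytic subunits (Ppp1ca, Ppp1cb and Ppp1cc). All 9 were listed, and 8 had enough counts to be tested by edgeR, among 13215 genes in all. The untested member was Ppp1r14d. The genes were selected on the counts and CPM of this same comparison, so their levels and fold changes are a description and carry no test.

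The sequenced RNA came from sorted c-Kit high leukemic cells (c-Kit is the receptor of stem cell factor) of 2 C57BL/6 mice with the genotype Msi2 -/- and 2 C57BL/6 mice with the genotype Msi2 flox/flox, called controls here. The series title places the cells in leukemia driven by MLL, and both groups carry that leukemia. By the design text each of the 4 libraries is 1 mouse. The sources used here do not give the age and sex of the mice, the Cre line or the MLL fusion.

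Protein phosphatase 1 removes phosphate from serine and threonine. Its catalytic subunits have little selectivity of their own, and bound partners bring them to a substrate. The MYPT proteins, among them those encoded by Ppp1r12a and Ppp1r12c, bring PP1, chiefly the beta isoform encoded by Ppp1cb, to the light chain of myosin II and to the ERM proteins, which tie actin to the plasma membrane. The PPP1R14 proteins are small inhibitors that block this enzyme once a kinase such as protein kinase C has phosphorylated a conserved threonine. In smooth muscle the member encoded by Ppp1r14a keeps the light chain phosphorylated and the muscle contracted.

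The feature that makes these proteins inhibitors is visible in their coding sequences, shown here because the levels of the 4 genes differed so widely. Each line is a stretch of 72 bases of coding exon 1 in the GENCODE vM21 transcripts (GRCm38), 5′ to 3′ along the transcript, with the triplet of the phosphorylated threonine in capitals. The triplet was located by translating each annotated coding sequence and finding its only TVKYD run.
Ppp1r14a: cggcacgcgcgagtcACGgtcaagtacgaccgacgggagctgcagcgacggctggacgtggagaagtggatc
Ppp1r14b: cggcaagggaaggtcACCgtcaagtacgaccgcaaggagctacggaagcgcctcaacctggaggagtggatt
Ppp1r14c: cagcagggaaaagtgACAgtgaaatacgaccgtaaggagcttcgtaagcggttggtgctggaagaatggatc
Ppp1r14d: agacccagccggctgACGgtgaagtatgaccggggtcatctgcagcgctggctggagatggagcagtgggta
The stretches lie at chr7:29289431-29289502 on the plus strand (Ppp1r14a), chr19:6975402-6975473 on the plus strand (Ppp1r14b), chr10:3366865-3366936 on the plus strand (Ppp1r14c) and chr2:119229569-119229640 on the minus strand (Ppp1r14d). The threonine is codon 38 of Ppp1r14a, 57 of Ppp1r14b, 72 of Ppp1r14c and 59 of Ppp1r14d. Without gaps, 30 of the 72 bases were the same in all 4 genes. Ppp1r14c shared 72.2% of the bases with Ppp1r14b, 63.9% with Ppp1r14a and 51.4% with Ppp1r14d. Ppp1r14a and Ppp1r14b also shared 72.2%. Ppp1r14b, the most abundant inhibitor in every library, and Ppp1r14c, the inhibitor present in the controls and at 0 in the Msi2 -/- cells, thus share over this stretch as many bases as any pair.

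Reads assigned to genes numbered between 78659396 and 87564774 in the Msi2 -/- libraries and between 72273679 and 79845492 in the controls. Levels are given as CPM, counts per 1000000 of the TMM-scaled library size, and 3 counts then equal between 0.0343 and 0.0412 CPM. Msi2 itself had 8 and 17 counts in the Msi2 -/- libraries, against 2804 and 3562 counts in the controls. Kit and Ptprc, the genes of c-Kit and of the pan-leukocyte protein CD45, lay at 57.1 to 68.1 and 227 to 257 CPM in Msi2 -/- cells, against 50.4 to 51.9 and 220 to 227 CPM in controls. The groups also differed in Xist, the RNA of the inactive X chromosome, which stood at 0.469 and 0.624 CPM in the Msi2 -/- libraries, against 1455 CPM in control 1 and 654 CPM in control 2. Ddx3y, Eif2s3y, Kdm5d and Uty of the Y chromosome summed to 224 and 242 CPM in the Msi2 -/- libraries, against 41.1 CPM in control 1 and 184 CPM in control 2. Whatever set these levels apart runs with genotype in these libraries, and its part in any difference given here cannot be told apart from that of Msi2. Both controls held Xist together with Y-linked transcripts, and whether a control library mixes cells of both sexes was not tested.

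Among the inhibitors, Ppp1r14c was present in both controls and at 0 in both Msi2 -/- mice, and Ppp1r14b was by far the most abundant in every library. Ppp1r14a and Ppp1r14d were close to the floor throughout. Ppp1r14c encodes the inhibitor also called KEPI. It had 0 and 0 counts in Msi2 -/- replicates 1 and 2, against 815 and 715 counts in control 1 and control 2. In CPM this was 0 and 0 in the Msi2 -/- libraries, against 10.1 and 9.81 in the controls, so both controls were high and close to each other and both Msi2 -/- libraries were empty. A count of 0 allows up to 0.0343 CPM in Msi2 -/- replicate 1 and 0.0390 CPM in replicate 2, for counting error only. Against that floor of 3 counts per library, the level was at least 271-fold lower in the Msi2 -/- cells. With any 1 library left out the bound lay between 255-fold and 289-fold. Ppp1r14c passed the filter on low counts through the controls alone, so it had to differ. In bulk RNA a loss of cells that contain the transcript and a loss of transcript per cell cannot be told apart.

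**Figure D1:**
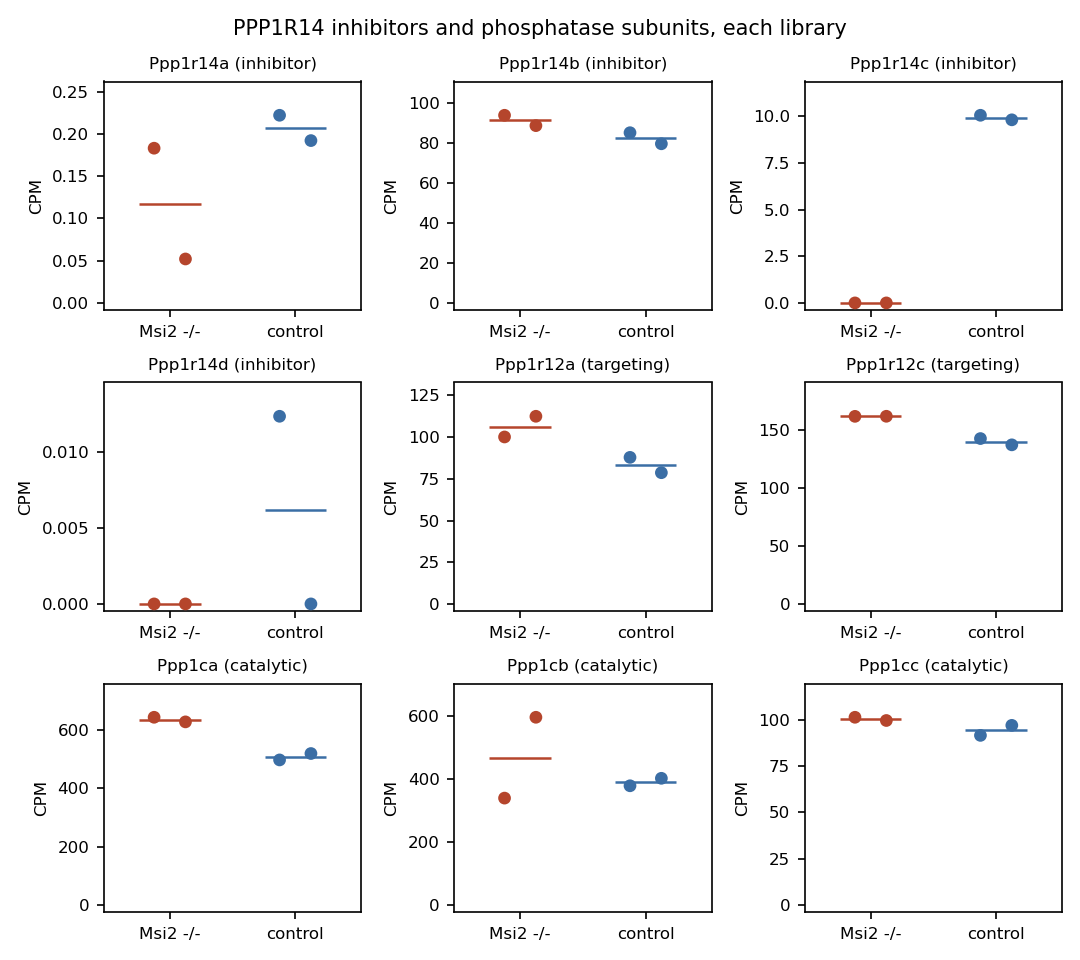
CPM of each of the 9 genes in each library, Msi2 -/- on the left of each panel and control on the right, with a line at the mean of the 2 mice; each vertical axis starts at about 0 and has its own scale. Ppp1r14c is at 0 in both Msi2 -/- libraries and at 10.1 and 9.81 CPM in the controls, and Ppp1cb has 1 high Msi2 -/- library at 596 CPM.

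Ppp1r14b encodes PHI-1, the widely expressed member of the family. It had 93.7 and 88.6 CPM in Msi2 -/- replicates 1 and 2, against 85.0 and 79.5 CPM in the controls. Both Msi2 -/- values lay above both controls, but the nearest values of the groups were closer than the mice within a group. The means were 91.1 ± 3.66 CPM in Msi2 -/- and 82.3 ± 3.91 CPM in control cells (SD, n = 2 each), and the log2 fold change 0.15 (SE 0.074).

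Ppp1r14a, the gene of the smooth muscle inhibitor CPI-17, had 16 and 4 counts in the Msi2 -/- libraries, against 18 and 14 counts in the controls. At 0.183 and 0.0520 CPM in Msi2 -/- cells, against 0.222 and 0.192 CPM in control cells, it was barely above the floor. The groups did not overlap, but most of the difference rested on Msi2 -/- replicate 2: the log2 fold change was -0.79 (SE 0.74) with all libraries and -0.18 without Msi2 -/- replicate 2. Smooth muscle markers were low too, with at most 13 counts for Myh11 and 1 count for Lmod1 in any library. Acta2 and Tagln lay between 1.73 and 2.92 CPM in the Msi2 -/- libraries and between 1.22 and 2.78 CPM in the controls.

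Ppp1r14d, whose product is named after gut and brain, had 0 and 0 counts in the Msi2 -/- libraries, against 1 and 0 counts in the controls. Both groups were under the floor of 3 counts, so no fold change is given, and the transcript was not detectable at this depth.

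Few genes with at least 100 counts in both controls had none in the Msi2 -/- cells. Of 10855 genes with at least 100 counts in both controls, 4 had 0 counts in both Msi2 -/- libraries (0.0368%), and Ppp1r14c was 1 of them. The others were 3830403N18Rik, Alpi and Fez1. In the other direction, 0 of 10679 genes with at least 100 counts in both Msi2 -/- libraries had 0 counts in both controls (0%). The minimum of 100 counts was chosen after the values were seen, and Ppp1r14c was chosen for its level, so the share is a description. It covers genes of all levels above that minimum, not genes near the level of Ppp1r14c.

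**Figure D2:**
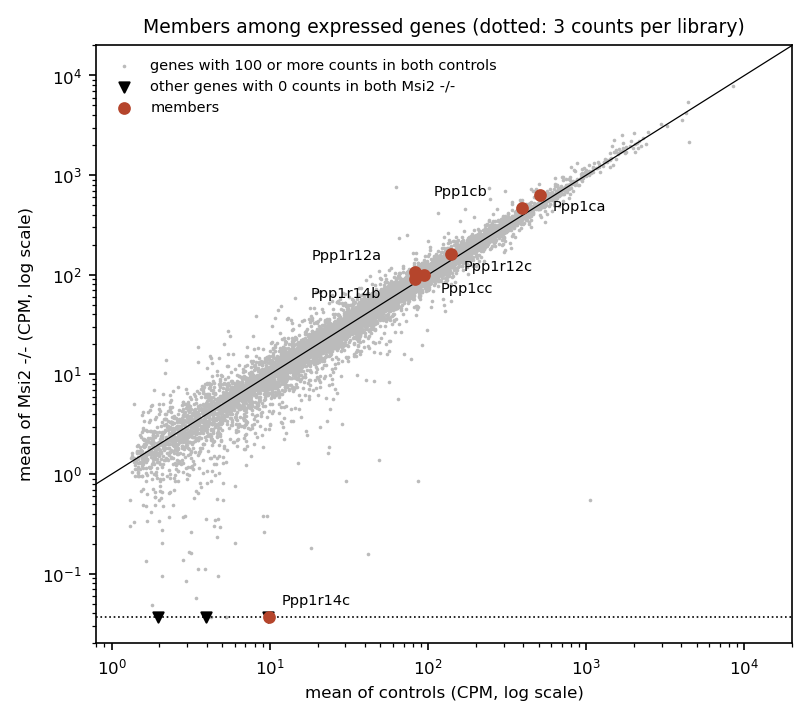
Mean CPM of the 2 Msi2 -/- mice (vertical, log scale) against the mean of the 2 controls (horizontal, log scale) for the 10855 genes with at least 100 counts in both controls; values below 3 counts per library are drawn at the dotted line. Ppp1r14a and Ppp1r14d have fewer counts and are not drawn. The other members drawn lie near the diagonal of equal means, and Ppp1r14c lies on the dotted line at a control mean of 9.93 CPM, over the symbol of 3830403N18Rik.

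The genes whose levels ran most like those of Ppp1r14c over the 4 libraries were Tfpi, Zfp783, Serpinf1, Hebp2 and Ikzf2. Likeness was the Euclidean distance between log2(CPM + 0.5) values, each gene centred on its own mean, among 8726 genes with an established symbol and an average log2 CPM, as edgeR computes it, of at least 3. Ppp1r14c itself, at 2.32, lies under that limit, and the limit and the rule on symbols leave out 3830403N18Rik, so the ranking covers genes of higher average level alone. The distance was 0.99 for Tfpi and between 1.35 and 1.64 for the other 4. Ikzf2, which encodes the transcription factor Helios, had 0.789 and 0.923 CPM in the Msi2 -/- libraries, against 79.7 and 94.0 CPM in the controls, and was the 1 gene that edgeR's test called lower at an adjusted p under 0.05 (adjusted p = 0.0165). Tfpi, the gene of a clotting inhibitor, had 131 and 137 counts in the Msi2 -/- libraries, against 2222 and 1407 counts in the controls. With 4 libraries in 2 groups such a ranking mostly collects genes that are low in the Msi2 -/- cells.

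The promoter of Ppp1r14c is shown because the transcript was present in 1 group and at 0 in the other. It is the RefSeq window of 300 bases around the gene start (GRCm38.p6, chr10:3365900-3366199, plus strand), with each CG pair in capitals.
Ppp1r14c: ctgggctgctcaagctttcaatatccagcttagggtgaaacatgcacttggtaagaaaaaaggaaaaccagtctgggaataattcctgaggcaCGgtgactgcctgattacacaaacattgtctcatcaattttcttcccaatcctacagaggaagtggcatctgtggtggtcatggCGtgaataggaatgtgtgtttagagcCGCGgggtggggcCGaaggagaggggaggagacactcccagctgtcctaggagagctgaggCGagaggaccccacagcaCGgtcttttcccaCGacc
The window holds 8 CG pairs, a pair that reads the same on both strands, and 52.0% G and C. Of 32851 windows of this length, 48.6% hold as many CG pairs or more, and the median is 7. The windows of Ppp1r14b and Ppp1r14a hold 23 and 25 CG pairs, that of Ppp1r14d holds 1, and those of Ppp1r12a, Ppp1r12c, Ppp1cb and Ppp1cc hold between 31 and 42. Ppp1r14a, near the floor in both groups, and Ppp1r14b, abundant in both, thus have nearly equal numbers. No DNA methylation or binding was measured.

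The nearest genes on chromosome 10 were read to see how far the zero reached. In the RefSeq order of GRCm38.p6, Ppp1r14c is the 3rd gene with a row in the count files, after B020014A21Rik and H60c, and is followed by Iyd, Plekhg1, Mthfd1l, Akap12 and Zbtb2. Iyd, the adjacent gene, had 0 counts in all 4 libraries. Plekhg1, the next, which encodes a guanine nucleotide exchange factor, had 9 and 5 counts in the Msi2 -/- libraries, against 308 and 153 counts in the controls. At 0.103 and 0.0650 CPM in Msi2 -/- cells, against 3.80 and 2.10 CPM in controls, it was low in both Msi2 -/- mice without being empty. The log2 fold change of Plekhg1 was -5.10 (SE 0.55). Plekhg1 too passed the filter on low counts through the controls alone, so its difference is given without a test.

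Farther out, no gene was close to 0 in 1 group and high in the other. Mthfd1l, a mitochondrial folate enzyme gene, had 181 and 157 CPM in the Msi2 -/- libraries, against 173 and 221 CPM in the controls, and the groups overlapped. Akap12, a scaffold gene, had 25.0 and 26.7 CPM in Msi2 -/- cells, against 23.1 and 15.01 CPM in controls. Zbtb2, a zinc finger gene, had 18.2 and 15.2 CPM in Msi2 -/- cells, against 20.2 and 20.7 CPM in controls. On the other side H60c, the gene of a ligand of a natural killer cell receptor, had 45 and 41 counts in the Msi2 -/- libraries, against 4 and 20 counts in the controls, and B020014A21Rik had 0 counts in all 4 libraries. H60c lay under the limit of the filter on low counts in control 1 and needed the Msi2 -/- libraries to pass. Its difference is thus given without a test. The log2 fold change of H60c was 1.70 with all libraries, 0.93 without control 1 and 3.37 without control 2. By edgeR's quasi-likelihood test the adjusted p was between 0.469 and 0.580 for Mthfd1l, Akap12 and Zbtb2.

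**Figure D3:**
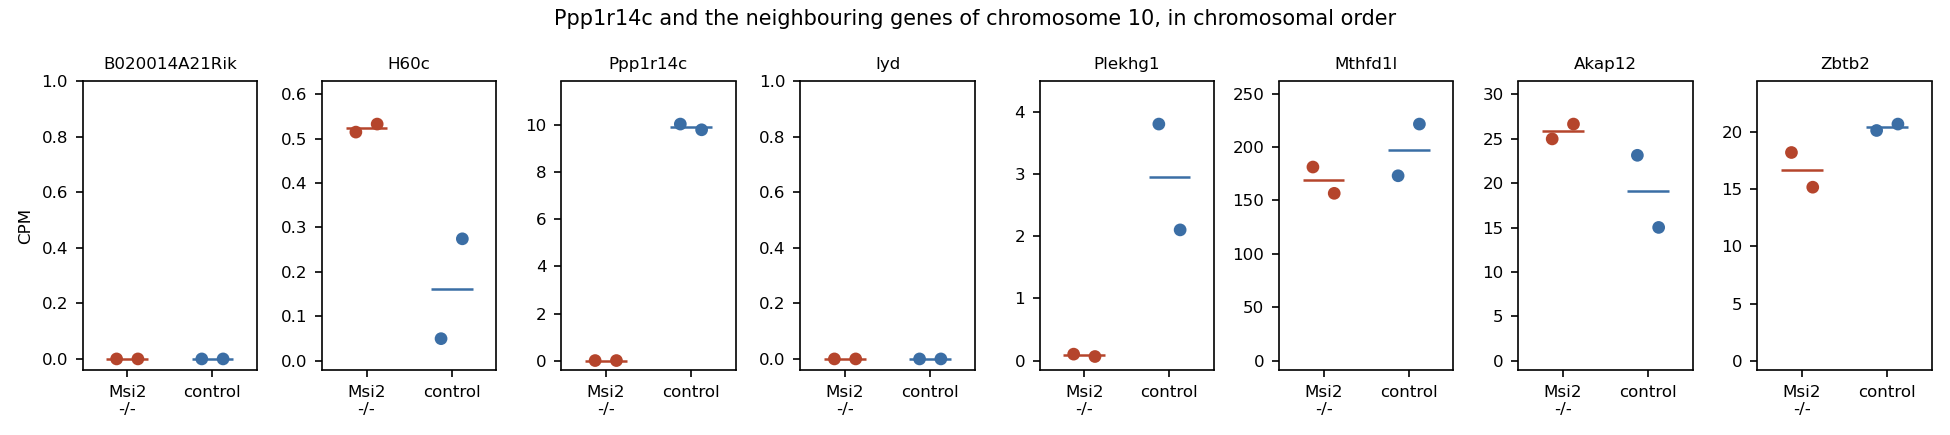
CPM of Ppp1r14c and its chromosomal neighbours in each library, in the order of the chromosome, Msi2 -/- on the left of each panel and control on the right, with a line at the mean and a scale per panel. Ppp1r14c and Plekhg1 are low in both Msi2 -/- libraries, while Mthfd1l has overlapping groups.

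Both targeting subunits had higher values in both Msi2 -/- libraries than in either control, and neither was called by edgeR or DESeq2 at an adjusted p under 0.05. Ppp1r12a encodes MYPT1, the main targeting subunit of the myosin phosphatase. It had 100.1 and 112 CPM in the Msi2 -/- libraries, against 87.9 and 78.7 CPM in the controls. Both Msi2 -/- values lay above both controls, with means of 106 ± 8.77 CPM in Msi2 -/- and 83.3 ± 6.50 CPM in control cells (SD, n = 2 each) and a log2 fold change of 0.35 (SE 0.099). Ppp1r12c, which encodes the related subunit MBS85, had 162 and 162 CPM in the Msi2 -/- libraries, against 143 and 138 CPM in the controls. Its groups did not overlap either, and its log2 fold change was 0.21 (SE 0.063). Ppp1r12b, a related gene, is not among the 9 and lay between 3.58 and 3.67 CPM in all 4 libraries. It was named after its values were seen.

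The 3 catalytic subunits differed from each other in pattern. Ppp1ca, for the alpha isoform, had 645 and 629 CPM in the Msi2 -/- libraries, against 498 and 520.1 CPM in the controls. The mice of each group were close together and the groups were apart, with means of 637 ± 11.2 CPM in Msi2 -/- and 509 ± 15.6 CPM in control cells (SD, n = 2 each) and a log2 fold change of 0.32 (SE 0.066). In the RefSeq table one end of Ppp1ca overlaps Rad9a, which has no gene row under that symbol. How reads from the overlap were counted is not known.

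Ppp1cc, for the gamma isoform, had 101 and 99.5 CPM in the Msi2 -/- libraries, against 91.5 and 96.9 CPM in the controls (log2 fold change 0.09, SE 0.067). The groups did not overlap, but the gap between them was smaller than the gap between the controls. RefSeq lists a like-named gene, Ppp1ccb, for which no gene row was found. How reads shared by both were counted is not stated in the labels.

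Ppp1cb, for the beta isoform that the MYPT subunits bind, had 339 and 596 CPM in the Msi2 -/- libraries, against 378 and 402 CPM in the controls. Msi2 -/- replicate 1 was the lowest of the 4 libraries and replicate 2 the highest, so the groups overlapped. The log2 fold change was 0.26 (SE 0.28) with all libraries, 0.62 without Msi2 -/- replicate 1 and -0.20 without replicate 2. The same 2 libraries differed in the same order in the sum of the 10 monocyte and macrophage markers, which came to 1036 and 2167 CPM in Msi2 -/- replicates 1 and 2, against 1503 and 1467 CPM in the controls. Of these 10 markers 9 exceeded 3 counts in some library, and C1qa had 0 and 1 counts in the Msi2 -/- libraries, against 0 and 0 counts in the controls. Most of the sum was Ly6c2, at 942 and 1649 CPM in the Msi2 -/- libraries, against 1268 and 1128 CPM in the controls. Irf8 ran the other way, at 6.02 and 5.25 CPM in the Msi2 -/- libraries, against 15.3 and 34.7 CPM in the controls. Irf8 and Cx3cr1 were lower in both Msi2 -/- libraries than in either control. Csf1r and Cd68 were higher in both, Csf1r at 10.46 and 13.96 CPM, against 4.32 and 6.39 CPM in the controls. Ccr2 had 19.98 and 312 CPM in the Msi2 -/- libraries, against 129.7 and 198.5 CPM in the controls. Ly6c2, Ccr2, F13a1, Emr1 and Mrc1 overlapped between the groups. The 10 mature neutrophil markers summed to 1398 and 2225 CPM in Msi2 -/- replicates 1 and 2, against 1025 and 678 CPM in the controls, with all 10 above 3 counts in some library. S100a8 and S100a9 were higher in both Msi2 -/- libraries, S100a8 at 536.5 and 938 CPM, against 273 and 210 CPM in the controls. Cxcr2 was lower, at 1.58 and 3.57 CPM in the Msi2 -/- libraries, against 6.59 and 9.40 CPM in the controls, as was Mmp9, while Ngp and Camp overlapped between the groups. Ltf and Mmp9 were lower in Msi2 -/- replicate 2 than in replicate 1, unlike Ppp1cb. Pecam1, an endothelial and myeloid surface gene from the smooth muscle and stroma list, had 24.6 and 166 CPM in the Msi2 -/- libraries, against 58.8 and 72.8 CPM in the controls. The part of these cells in the level of Ppp1cb was not tested.

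Per kilobase of exon, Ppp1ca was the most abundant of the 9 genes in all 4 libraries. Its level was 432 ± 7.59 CPM per kilobase in Msi2 -/- and 346 ± 10.6 CPM per kilobase in control cells (SD, n = 2 each). Ppp1r14b followed at 85.5 ± 3.43 CPM per kilobase in Msi2 -/- and 77.2 ± 3.67 CPM per kilobase in control cells, then Ppp1cb at 78.4 ± 30.4 CPM per kilobase in Msi2 -/- and 65.4 ± 2.81 CPM per kilobase in control cells. In the Msi2 -/- libraries the ranges of Ppp1r14b and Ppp1cb overlapped, at 83.1 to 87.9 and 56.9 to 99.9 CPM per kilobase, and their order there does not exceed the spread. Next came Ppp1r12c, Ppp1cc and Ppp1r12a, at 54.4, 42.1 and 29.4 CPM per kilobase in Msi2 -/- and 47.0, 39.5 and 23.1 CPM per kilobase in control cells. Ppp1r14c had 0 CPM per kilobase in Msi2 -/- and 3.79 ± 0.066 CPM per kilobase in control cells, and Ppp1r14a had 0.086 and 0.151 CPM per kilobase in Msi2 -/- and control cells. Lengths are unions of exons in the GENCODE vM21 basic annotation, and the annotation used for counting may differ.

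**Figure D4:**
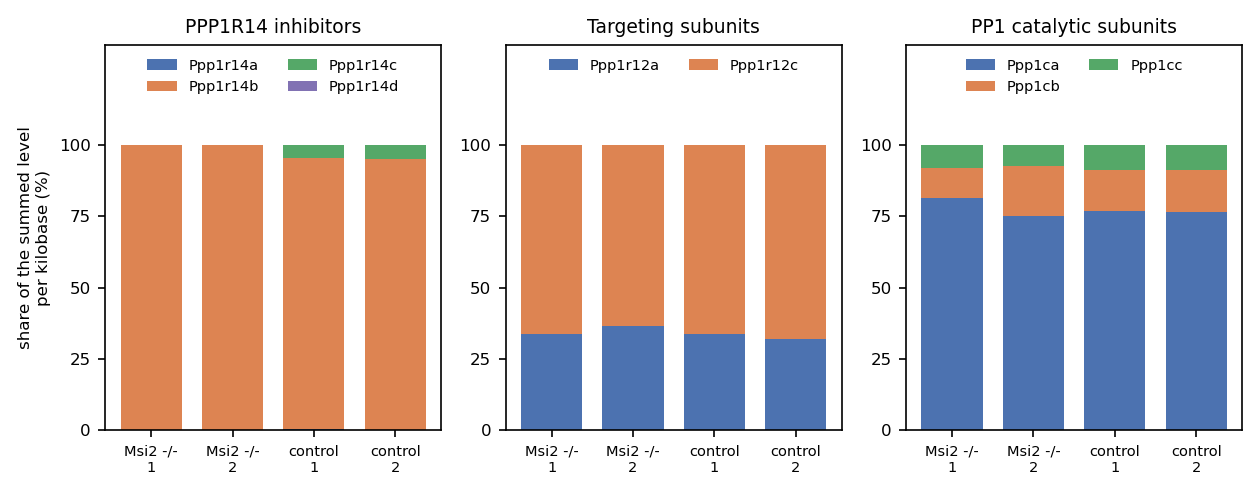
Share of each gene in the summed level per kilobase (%) of its class, in each library, for the inhibitors, the targeting subunits and the catalytic subunits. Ppp1r14c takes 4.59% and 4.78% of the inhibitor sum in the controls and 0% in both Msi2 -/- libraries, and Ppp1cb takes 10.6% and 17.6% of the catalytic sum in Msi2 -/- replicates 1 and 2.

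Taken as shares of the inhibitor transcripts per kilobase, Ppp1r14b made up 99.8% and 99.95% in the Msi2 -/- libraries, against 95.2% and 95.0% in the controls. Ppp1r14c made up 0% and 0% in the Msi2 -/- libraries, against 4.59% and 4.78% in the controls. The summed inhibitor level was 88.1 and 83.1 CPM per kilobase in the Msi2 -/- libraries, against 83.8 and 78.5 CPM per kilobase in the controls, so the groups overlapped in the sum although 1 member was at 0. Among catalytic subunits Ppp1ca made up 81.5% and 75.1% in the Msi2 -/- libraries, against 76.9% and 76.6% in the controls. Their sum was 537 and 569 CPM per kilobase in the Msi2 -/- libraries, against 440 and 461 CPM per kilobase in the controls. Ppp1r12c made up 66.2% and 63.6% of the pair of targeting subunits in the Msi2 -/- libraries, against 66.3% and 67.9% in the controls.

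Of the 8 members tested, 5 had both Msi2 -/- libraries above both controls, where 23.7% of all tested genes had, and 2 had both below, where 24.6% had. The first 5 were Ppp1r14b, Ppp1r12a, Ppp1r12c, Ppp1ca and Ppp1cc, and the other 2 were Ppp1r14c and Ppp1r14a. Both Ppp1r14c and Ppp1r14a needed the controls to pass the filter on low counts. At an adjusted p under 0.05 edgeR called 0 members higher, where it called 0% of all genes, and 0 members lower, where it called 0.00757%. At an unadjusted p under 0.05 edgeR had 3 members higher and 1 lower, where it had 6.69% and 6.17% of all genes. DESeq2 called 1 member higher, Ppp1ca, where it called 3.1% of all genes, and 1 lower, Ppp1r14c, where it called 2.71%. Since values of this comparison were known when the members were chosen, nothing follows from these counts. Over other scalings, filters and tools the log2 fold change of Ppp1ca ran from 0.30 to 0.33 and that of Ppp1r12a from 0.33 to 0.36. Without control 1, the library lowest in Y-linked transcripts, the log2 fold change was 0.29 for Ppp1ca and 0.44 for Ppp1r12a, and Ppp1r14c was at least 268-fold lower. Both controls are high in Xist, so leaving out 1 of them does not remove that difference between the groups.

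The kinases, substrates and sister phosphatases of the pathway were read from 7 lists with 134 genes, none of them a member of the set of 9. Of these 113 were tested, and edgeR's quasi-likelihood test called 0 at an adjusted p under 0.05 over all genes. With unadjusted p under 0.05 it had 20 higher and 9 lower, beside 6.69% and 6.17% of all tested genes. DESeq2 called 11 higher and 6 lower, or 9.57% and 5.22% of the 115 genes to which it gave an adjusted p, beside 3.1% and 2.71% of all such genes. The lower DESeq2 calls include Ppp1r9a, which needed the controls to pass the filter on low counts. The lists were chosen with earlier results of these data known, so nothing follows from these counts or from those of each list below. The median log2 fold change of the tested pathway genes was 0.05, beside -0.00205 over all tested genes. With 1 library left out DESeq2 still called 8 of the 17 genes without Msi2 -/- replicate 1 and 5 without each of Msi2 -/- replicate 2, control 1 and control 2. Which genes were called changed, and the balance of higher and lower calls was not stable. Higher calls were the more numerous with all libraries and without control 1. Lower calls were the more numerous without Msi2 -/- replicate 1, without Msi2 -/- replicate 2 and without control 2. Cdc42bpa, Ezr, Mylk and Phactr2 were called with all libraries and with each left out in turn.

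**Figure D5:**
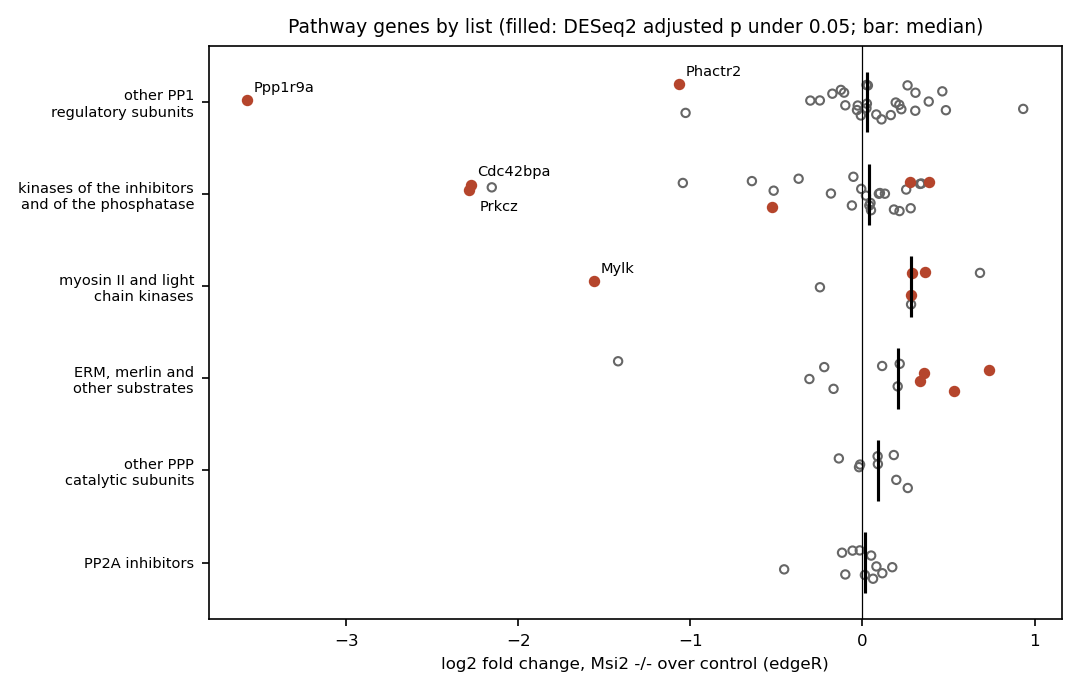
Log2 fold change by edgeR, Msi2 -/- over control, of each tested gene in 6 of the 7 pathway lists, 1 row per list, with a bar at the list's median; filled points have a DESeq2 adjusted p under 0.05. The largest differences of called genes lie below 0, for Ppp1r9a, Cdc42bpa, Prkcz and Mylk, while the called ERM and substrate genes lie above 0. Ppp1r9a needed the controls to pass the filter on low counts.

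The kinase list, enzymes that phosphorylate the PPP1R14 inhibitors or the targeting subunits, had 27 tested genes with a median log2 fold change of 0.04. DESeq2 called 2 higher and 3 lower, beside 3.1% and 2.71% of all genes, and edgeR called 0. With unadjusted p under 0.05 edgeR had 6 higher and 4 lower, beside 6.69% and 6.17% of all genes. Cdc42bpa, which encodes MRCK alpha, a kinase of the Cdc42 pathway that phosphorylates MYPT1, had 2.37 and 1.39 CPM in the Msi2 -/- libraries, against 9.79 and 8.42 CPM in the controls (log2 fold change -2.27, SE 0.35, adjusted p = 0.271 by edgeR and 4.7e-07 by DESeq2). Its relative Cdc42bpb was also lower (-0.53, SE 0.12, DESeq2 adjusted p = 0.00742), and Cdc42bpg was higher (0.39, SE 0.075, DESeq2 adjusted p = 0.00498). Prkcz, an atypical protein kinase C gene, had 0.423 and 0.260 CPM in the Msi2 -/- libraries, against 1.32 and 2.03 CPM in the controls (DESeq2 adjusted p = 0.0117), and Ilk, for integrin-linked kinase, was at 0.28 (SE 0.062, DESeq2 adjusted p = 0.00859). Of these, Prkcz was still called by DESeq2 without Msi2 -/- replicate 1 only, and Cdc42bpb, Cdc42bpg and Ilk lost the call whichever library was left out.

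The genes of myosin II and its light chain kinases had 7 tested members with a median log2 fold change of 0.28. DESeq2, which gave 9 genes of the list an adjusted p, called 3 higher and 1 lower, beside 3.1% and 2.71% of all genes. The edgeR test called 0. With unadjusted p under 0.05 it had 3 higher and 1 lower, beside 6.69% and 6.17% of all genes. Mylk, the myosin light chain kinase that opposes the phosphatase, had 52.6 and 34.2 CPM in the Msi2 -/- libraries, against 98.7 and 157 CPM in the controls. Both Msi2 -/- values lay below both controls, at a log2 fold change of -1.56 (SE 0.32, adjusted p = 0.294 by edgeR and 4.45e-05 by DESeq2). The motor and light chain genes lay on the other side: Myh9 for the heavy chain at 0.29 (SE 0.069), Myl6 for the essential light chain at 0.36 (SE 0.093) and Myl12a for a regulatory light chain at 0.28 (SE 0.077), with DESeq2 adjusted p-values of 0.00413, 0.0307 and 0.0444. With a library left out, DESeq2 still called Myl6 without Msi2 -/- replicate 1 only, and Myh9 and Myl12a in no case. Myl9, the smooth muscle regulatory light chain, had 0 counts in all 4 libraries and was named after its values were seen.

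Substrates of the myosin phosphatase had 11 tested genes with a median log2 fold change of 0.20, and edgeR called 0. DESeq2 called 4 higher and 0 lower, beside 3.1% and 2.71% of all genes. With unadjusted p under 0.05 edgeR had 5 higher and 0 lower, beside 6.69% and 6.17% of all genes. Ezr, the gene of ezrin, an ERM protein, had 222 and 226 CPM in the Msi2 -/- libraries, against 120 and 150 CPM in the controls. The Msi2 -/- mice were nearly equal and above both controls, at a log2 fold change of 0.74 (SE 0.13, adjusted p = 0.282 by edgeR and 5.69e-05 by DESeq2). Add1, for the membrane skeleton protein adducin, was at 0.35 (SE 0.072), Rb1, for the retinoblastoma protein, at 0.33 (SE 0.063) and Marcksl1, for a substrate of protein kinase C, at 0.53 (SE 0.11), with DESeq2 adjusted p-values of 0.00442, 0.0024 and 0.00398. With a library left out, DESeq2 called Add1 and Rb1 in no case and Marcksl1 without Msi2 -/- replicate 1 or control 1, so that without Msi2 -/- replicate 2 or control 2 Ezr was the 1 gene of the 4 still called.

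Other regulatory subunits of PP1 had 29 tested genes with a median log2 fold change of 0.03. DESeq2 called 0 higher and 2 lower, beside 3.1% and 2.71% of all genes, and edgeR called 0. With unadjusted p under 0.05 edgeR had 0 higher and 3 lower, beside 6.69% and 6.17% of all genes. Phactr2, a PP1 and actin binding protein gene, had 14.6 and 15.3 CPM in the Msi2 -/- libraries, against 35.5 and 27.2 CPM in the controls (log2 fold change -1.07, SE 0.17, adjusted p = 0.271 by edgeR and 1.54e-05 by DESeq2). Ppp1r9a, which encodes the neuronal PP1 partner neurabin, had 10 and 32 counts in the Msi2 -/- libraries, against 357 and 139 counts in the controls (log2 fold change -3.57, SE 0.84). Ppp1r9a lay under the limit of the filter on low counts in Msi2 -/- replicate 1 and needed the controls to pass. Its difference is thus given without a test, though it is 1 of the 2 genes that DESeq2 called. Its size rested on single libraries, at -2.91 without Msi2 -/- replicate 1, -4.77 without replicate 2 and -2.84 without control 1, where DESeq2 no longer called it. Wbp11, a splicing factor gene whose product binds PP1, was at -0.18 (SE 0.064, DESeq2 adjusted p = 0.187).

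Catalytic subunits of the other PPP phosphatases had 8 tested genes with a median of 0.09 and 0 calls by edgeR and by DESeq2. With unadjusted p under 0.05 edgeR had 2 higher and 0 lower, beside 6.69% and 6.17% of all genes. Those of smallest p were Ppp3cb for calcineurin at 0.18 (SE 0.064), Ppp6c at 0.20 (SE 0.070) and Ppp2cb at 0.26 (SE 0.12). Inhibitors of protein phosphatase 2A had 11 tested genes with a median of 0.01 and 0 calls by both tools. With unadjusted p under 0.05 edgeR had 0 higher and 1 lower, beside the same shares of all genes. The smallest p belonged to Bod1 at -0.46 (SE 0.14), Ensa at -0.12 (SE 0.070) and C330027C09Rik, an older symbol of Cip2a, at 0.17 (SE 0.11).

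All 10 genes of the c-Kit high leukemic list were detected, with sums of 7791 and 10348 CPM in the Msi2 -/- libraries, against 10245 and 10675 CPM in the controls. Most of each sum was Elane and Mpo. Mpo was lower in both Msi2 -/- libraries, at 2117 and 2159 CPM, against 4001 and 4953 CPM in the controls. Myb and Flt3 were also lower in both, Flt3 at 0.629 and 0.130 CPM, against 1.41 and 4.39 CPM in the controls. Kit and Sfpi1, an older symbol of Spi1, were higher in both. Elane, Ptprc, Hoxa9, Hoxa10 and Meis1 overlapped between the groups. T cell genes Cd3e, Cd3g, Cd8a and Cd8b1, B cell genes Ms4a1 and Pax5, and red cell genes Hba-a1 and Hba-a2 had 0 counts in all 4 libraries. Lck and Cd79b, which carried nearly all of the T and B cell sums, had 568 and 727 counts (Lck) and 1786 and 1420 counts (Cd79b) in the Msi2 -/- libraries, against 726 and 725 counts (Lck) and 2115 and 1914 counts (Cd79b) in the controls. The T cell list summed to 6.68 and 9.48 CPM in the Msi2 -/- libraries, against 9.03 and 10.002 CPM in the controls, the B cell list to 21.7 and 19.4 CPM in the Msi2 -/- libraries, against 28.0 and 27.5 CPM in the controls, and the erythroid list to 1.648 and 1.001 CPM in the Msi2 -/- libraries, against 1.42 and 1.51 CPM in the controls. The platelet and megakaryocyte list summed to 7.04 and 12.3 CPM in the Msi2 -/- libraries, against 8.15 and 6.20 CPM in the controls, and the mast cell and basophil list to 11.0 and 21.2 CPM in the Msi2 -/- libraries, against 23.9 and 21.8 CPM in the controls. The smooth muscle and stroma list, where 8 of 10 genes exceeded 3 counts in some library, summed to 30.0 and 171 CPM in the Msi2 -/- libraries, against 64.2 and 76.3 CPM in the controls, most of it Pecam1.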

How the data were processed

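RNA was measured in 4 libraries of c-Kit high leukemic cells, 2 Msi2 -/- and 2 control, each from 1 mouse per the design text and grouped by their titles. The authors deposited unnormalized read counts, whole numbers for each of 23284 gene symbols. Trimmomatic, STAR, HTSeq, DESeq and the build mm9 are named without versions in the submitters' processing notes. The annotation, strand setting and overlap mode are unknown, not given in the sources used here. The 5 closing rows that name no gene took between 19.1% and 20.1% of counts and were left out. No 2 files held the same values, and replicates differed by more than sampling noise (median chi-square per gene of 13.0 between the Msi2 -/- libraries and 8.21 between the controls), so no library was treated as a repeat deposit. Library names begin with a number that differs between the groups; if it marks a batch, batch and genotype cannot be told apart.

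The main test, edgeR 4.0.16 in R 4.3.3, used filterByExpr (minimum count 10, minimum total 15), TMM scaling, a quasi-likelihood fit with genotype as the only term, 2-sided, and Benjamini-Hochberg adjusted p under 0.05 over 13215 genes. DESeq2 1.42.0 (Wald test, 13350 genes with an adjusted p) is given beside it. Log2 fold changes are edgeR's, Msi2 -/- minus control, and their SE comes from the quasi-likelihood F statistic. Both fits were tested on simulated counts. Intervals and floors cover counting error only. Gene symbols and order came from the RefSeq table of GRCm38.p6, whose build differs from that of the counts, and sequences and lengths from GENCODE vM21 and RefSeq. Alternatives tried were scaling by RLE or upper quartile, no filter, a filter at 1 CPM in 2 libraries, DESeq2, edgeR's likelihood ratio test, the replicate number as a block and leaving out each library. The 9 genes, the pathway and marker lists and their rules were chosen with earlier results of these data known. Of each pathway list the text names the 3 genes of smallest edgeR p and up to 4 further DESeq2 calls, and genes named for their values are marked as such. The genes of 1 pathway list are counted in the totals and not reported here.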

Additional observations from a re-analysis of the deposited data

How the results depend on the processing

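With 2 mice a group, the p-values weigh each difference against a spread estimated from these mice alone, with information shared across genes. EdgeR's quasi-likelihood test called 0 genes higher and 1 lower in Msi2 -/- cells (with unadjusted p under 0.05, 884 higher and 815 lower). DESeq2 called 414 higher and 362 lower, edgeR's likelihood ratio test 120 and 192, and no filter on low counts gave 6 lower. Leaving out 1 library, the quasi-likelihood test called between 0 and 23 genes higher and between 0 and 83 lower. Of the pathway genes it called 0 with all libraries and 0 with any left out, where DESeq2 called 17 and the likelihood ratio test 7. The cause of these differences was not tested. Leaving out a library leaves 1 mouse in a group, which is then assumed to vary like the other group. With 1 library left out, an alternative added after the data were seen, DESeq2 called between 5 and 10 pathway genes. Replicate numbers are shared by the groups, but deviations of same-numbered libraries correlated at 0.01 over 13215 genes. The numbers thus marked no shared shift in levels, which cannot tell whether the mice were paired in some other way. With the replicate number as a block edgeR called 0 genes higher, 0 lower and 0 pathway genes.

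Of 76 log2 fold changes of the members other than Ppp1r14c and Ppp1r14d under these alternatives, 6 moved by more than the spread between replicates, 5 of them with a library left out, and 1 changed sign, that of Ppp1cb at -0.20 without Msi2 -/- replicate 2. The exception without a library left out was Ppp1r14a at -0.96 with the block. By the longest transcript in place of the union of exons, an alternative added after the data were seen, the order of the 9 genes per kilobase was the same. Ppp1r14a and Ppp1r14d are limited by depth, at 18 counts or fewer in every library.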

Other observations

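The 3 other genes with at least 100 counts in both controls and 0 counts in both Msi2 -/- libraries differed in how even the controls were: the counts of Alpi were close in both, as those of Ppp1r14c were, and the counts of Fez1 and 3830403N18Rik were less even. Alpi, an intestinal alkaline phosphatase gene, had 0 and 0 counts in the Msi2 -/- libraries, against 280 and 321 counts in the controls. Fez1, a gene of an adaptor for kinesin transport, had 0 and 0 counts in the Msi2 -/- libraries, against 187 and 117 counts in the controls. The count of 3830403N18Rik was 0 and 0 in the Msi2 -/- libraries, against 1111 and 421 in control 1 and control 2. These genes were chosen for these values, which are given without a test.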
